A study of Rattus norvegicus with 2 samples.

Results

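Heat shock proteins and chaperones are the proteins that fold new polypeptides, keep them from clumping and refold or remove those that are damaged. The members were taken by symbol alone and comprise the Hsp genes except Hspg2, the Dnaja, Dnajb and Dnajc genes, the Cct genes with Tcp1, the Bag genes, Stip1, St13 and the Hsf genes. The rule found 92 members among 25395 genes with a unique name in the deposited values, and it used no measured value. They were measured in sympathetic neurons of the stellate ganglion, the sympathetic ganglion that innervates the heart, by droplet single-cell sequencing. The groups were male normotensive Wistar rats and male prehypertensive SHRs, all 5 to 6 weeks old, and each strain gave 1 library. The SHR is an inbred model in which hypertension has a genetic basis, and no transgene, drug or other treatment is named for either strain. The ganglia of both strains were dissociated with collagenase IV and trypsin and then broken up mechanically. How many animals entered each library is not given in the sources used here.

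Chaperones work as relays. An Hsp70 binds an unfolded stretch of protein, DnaJ proteins (Hsp40s) bring it clients and start its ATPase, and nucleotide exchange factors such as the Hsp110, Bag and Hspbp1 proteins let the client go. Stip1 passes clients on to Hsp90, while the ring-shaped CCT complex folds actin and tubulin, which prefoldin delivers. The endoplasmic reticulum (ER) and the mitochondria have chaperones of their own, and the factor Hsf1 raises many cytosolic ones after heat or other damage to proteins. In neurons these proteins serve long-lived cells with long axons, and some DnaJ proteins act at synaptic vesicles.

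The sequences on which these stress responses act can be read in the promoters of the members. The windows run from 250 bases before to 50 bases after each annotated start in RefSeq (rat assembly GRCr8), and 75 of the 92 members have one. Heat shock factors bind inverted repeats of GAA. The 3-unit form, GAANNTTC followed by NNGAA, was searched on both strands and was in the windows of 6 members, against 0.798% of all 33469 windows. The members are Hspa8, Hsph1, Hspd1, Hspe1, Dnaja1 and Cct4. The 2-unit forms are parts of it and were more common. GAANNTTC was found in 14 members and 8.59% of all windows, and TTCNNGAA in 14 members and 8.77% of all windows. The ER stress element, spelled CCAAT and CCACG with 9 bases of any kind between them and searched on both strands, was in the windows of Hspa5, Hsp90b1 and Dnajc3, against 0.0657% of all windows. These matches describe the letters of the reference assembly, not of either strain, and binding was not measured.

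The stretches below hold the 3-unit elements and show how differently they are placed, with the elements in capitals and each stretch read 5′ to 3′ on the strand of its gene. Hspa8 (chr8:50080266-50080506, plus strand) has an element at each end of the stretch, Hsph1 (chr12:10427297-10427367, plus strand) has 1 close to its start, and in Dnaja1 (chr5:60638409-60638429, plus strand) and Cct4 (chr14:101193078-101193098, plus strand) the element lies just after the start.
Hspa8: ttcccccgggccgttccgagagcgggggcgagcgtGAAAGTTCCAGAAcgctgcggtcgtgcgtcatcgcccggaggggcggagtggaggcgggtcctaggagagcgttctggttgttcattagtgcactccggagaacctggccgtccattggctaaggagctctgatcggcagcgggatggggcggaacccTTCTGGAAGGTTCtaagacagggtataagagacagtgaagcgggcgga
Hsph1: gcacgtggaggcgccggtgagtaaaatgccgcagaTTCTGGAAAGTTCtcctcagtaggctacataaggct
Dnaja1: ggcgGAACTTTCCAGAAcgct
Cct4: cgctTTCTGGAAGGTTCgtgg

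Hspd1 and Hspe1 lie head to head, with the starts used here 290 bases apart, and their windows share 211 bases. The same repeat (chr9:64084258-64084283), in which 2 of the 3-unit elements overlap, therefore stands before both of these starts. It is read on the minus strand for Hspd1 and on the plus strand for Hspe1. The annotated span of Hspd1 reaches into or close to this repeat, so for Hspd1 it is upstream only of the start used here.
Hspd1: ggccTTCCGGAAGGTTCTAGAAccga
Hspe1: tcggTTCTAGAACCTTCCGGAAggcc

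The ER stress elements are shown for all 3 members that hold one, in Hspa5 (chr3:38452938-38453015, plus strand), Dnajc3 (chr15:102432499-102432587, plus strand) and Hsp90b1 (chr7:23012444-23012473, minus strand, the farther of its 2 elements). The window of Hspb1 (chr12:26432368-26432465, minus strand) held no 3-unit element, and its GAANNTTC matches are given in capitals because Hspb1 had the largest positive difference of the 67 members compared.
Hspa5: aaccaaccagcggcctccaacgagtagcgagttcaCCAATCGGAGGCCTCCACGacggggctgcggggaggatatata
Dnajc3: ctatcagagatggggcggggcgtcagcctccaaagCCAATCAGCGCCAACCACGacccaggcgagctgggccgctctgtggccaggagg
Hsp90b1: aaacCCAATCGAAAGGAGCCACGcttcggg
Hspb1: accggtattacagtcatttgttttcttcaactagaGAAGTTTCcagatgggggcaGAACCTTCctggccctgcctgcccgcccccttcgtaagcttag

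Levels are means over the neurons of a library, per 10000 counts of a cell. Where only a pair of levels is given, the first is Wistar and the other SHR. Each count is a molecule tagged near its 3′ end, so levels of different genes were set side by side without dividing by length. Differences are given as log2(1 + mean), SHR minus Wistar, and the added 1 shrinks them for genes of low mean. With 1 library per strain no test, SD or interval can be given, the number of neurons and their depth are unknown, and higher and lower describe these libraries only. All 11 sympathetic neuron markers passed the minimum used for comparisons, with 6 lower and 5 higher in SHR. Th, which makes the first enzyme of noradrenaline synthesis, averaged 10.2 and 10.1 per 10000, but other markers differed more between the libraries, and Ddc and Dbh by more than any member. The log2 difference was -0.86 for Ddc and -0.61 for Dbh, both enzymes of the same pathway, -0.46 for the vesicular transporter gene Slc18a2 and 0.42 for the synaptic gene Snap25. The 36 listed markers of glia, endothelium, fibroblasts, immune, mural and red blood cells summed to 11.9 per 10000 in Wistar and 4.05 in SHR, and all 9 that passed the minimum (6 glial and 3 fibroblast) were lower in SHR. The glial gene Apoe made up most of that sum, with 6.24 and 2.23 per 10000, which in Wistar was above the level of Hspa5, and the myelin gene Mbp had 1.05 and 0.632. The T cell marker Cd3e and the red cell marker Alas2 were listed at 0 in both libraries.

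Members made up 1.25% of all counts in Wistar and 1.35% in SHR, with summed means of 124.8 and 134.8 per 10000. Hsp90ab1, Hspa8 and Hspb1 alone held 41.0% of that sum in Wistar and 48.9% in SHR. Without these 3 genes the sum was 73.7 in Wistar and 68.9 in SHR. Without Hsp90ab1 alone it was 95.53 in Wistar and 95.48 in SHR, so the higher total in SHR rested on Hsp90ab1. A mean of at least 1 per 10000 was reached by 29 members in Wistar and 32 in SHR.

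Of the 92 members, 67 reached an average of 0.1 per 10000 over both libraries, the minimum used for comparisons. Of the other 25, 18 were listed above 0 in at least 1 library (Bag2, Bag4, Bag5, Cct6b, Dnaja4, Dnajb3, Dnajb13, Dnajc5, Dnajc16, Dnajc22, Dnajc25, Dnajc28, Hspa1l, Hspb2, Hspb3, Hspb6, Hspb7 and Hspbap1), none of them above 0.119 per 10000, and 7 were listed at 0 in both libraries (Hspa1a, Hspa12b, Hsp90aa1, Hspb9, Dnajb7, Dnajb8 and Hsf5). Hspa1a, the best-known heat-inducible Hsp70, has the near-identical neighbor Hspa1b, and reads of such pairs are hard to assign, so its listed 0 is uncertain. Hsp90aa1, the inducible cytosolic Hsp90, was likewise only listed at 0, which is not shown to be its true level. Bag5 was listed at 0 in SHR alone, with a Wistar mean of 0.000995 per 10000.

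Among the 67 compared members, 37 were lower and 30 were higher in SHR. Over all 7621 genes past the same minimum 65.6% were lower and 34.4% higher, against 55.2% of the members lower. These shares are the background for the counts of families and lists below. With the median difference of all genes set to 0 the split of the members turned, to 28 lower and 39 higher, since 9 members had differences between 0 and that median. The median log2 difference was -0.03 for the members and -0.05 for all genes. Among members with an average of at least 1 per 10000 the order was different, since 17 of 28 were lower in SHR, against 45.5% lower and 54.5% higher of the 1676 genes past that level. The median log2 difference at that level was -0.07 for the members and 0.04 for all genes. How the list as a whole stood against the other genes thus depended on the minimum.

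**Figure D1:**
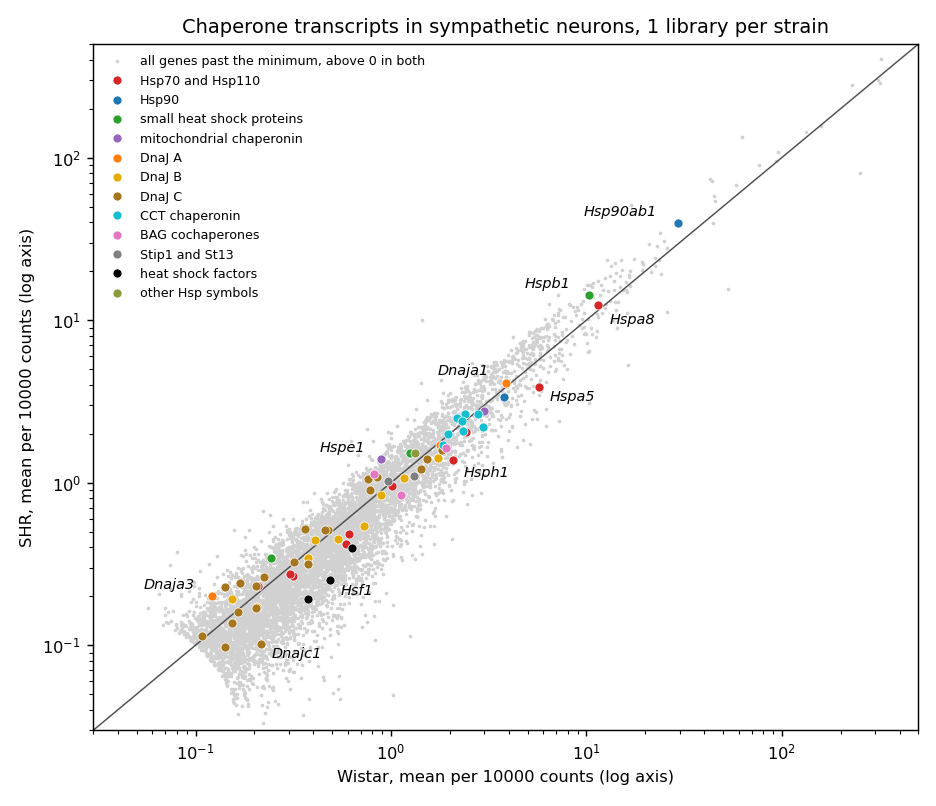
Mean per 10000 counts in the Wistar library (x axis, log scale) and the SHR library (y axis, log scale), with 1 point per gene. Colored points are the 67 compared members by family, gray points are the other genes past the minimum with values above 0 in both libraries, and the line marks equal means. Hsp90ab1 and Hspb1 lie above the line at high levels, and Hspa5 and Hsph1 lie below it.

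By the size used in place of a test, a log2 difference of at least 0.25, only 3 members were lower in SHR (Hspa5, Hsph1 and Cct6a) and 3 were higher (Hspb1, Hsp90ab1 and Hspe1). Over all genes past the minimum 11.8% were lower and 6.53% higher by that size, so neither count of members stood out. All 6 genes averaged at least 1 per 10000, a level above which 19.0% of all genes were lower and 25.7% higher by that size. By the ratio of the means, 5 members were at least 1.5 times lower in SHR (Hsph1, Hsf1, Hsf2, Hsf4 and Dnajc1), against 26.5% of all genes. Likewise, 3 were at least 1.5 times higher (Hspe1, Dnaja3 and Dnajc30), against 5.22% of all genes. Hsph1 and Hspe1 were past both sizes, and they alone of the 28 members with an average of at least 1 per 10000 passed the 1.5-fold size, against 11.6% of all genes at that level in the direction of Hsph1 and 10.3% in that of Hspe1.

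**Figure D2:**
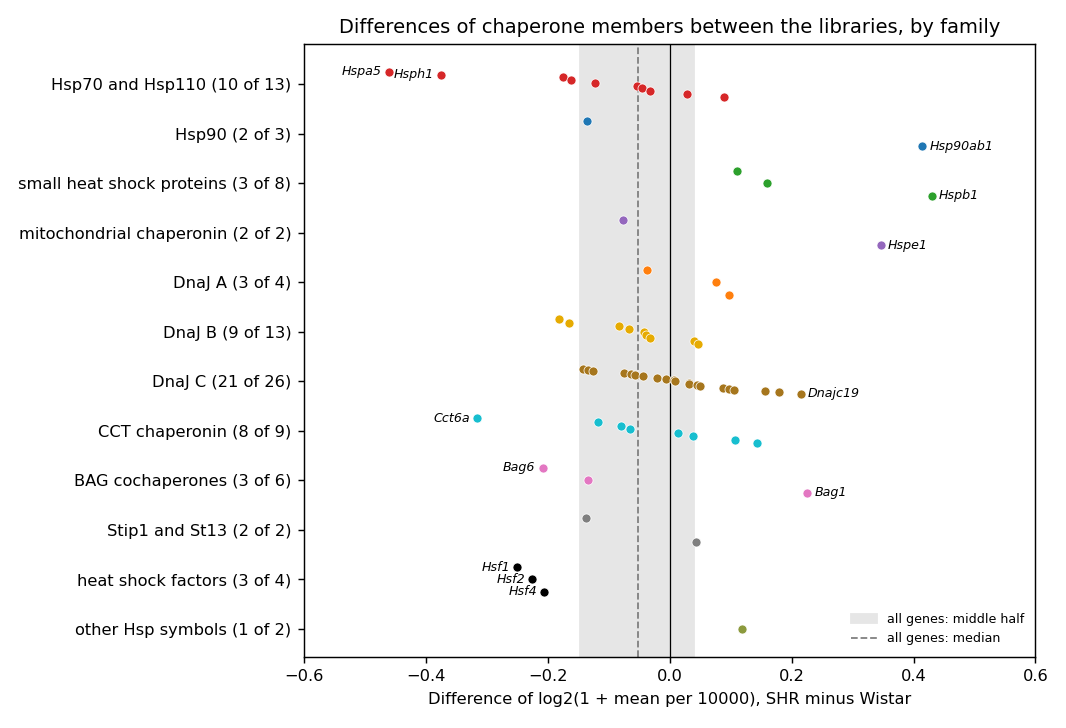
Difference of log2(1 + mean per 10000), SHR minus Wistar (x axis), for the members past the minimum, with 1 point per gene and families as rows. The numbers in parentheses give the members shown of all members in the family, the gray band covers the interquartile range of all 7621 genes, and the dashed line is their median of -0.05. Hsp70 genes spread to the left, the 3 small heat shock proteins lie to the right and the 3 heat shock factors to the left.

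The Hsp70 family was led by Hspa8, the constitutive cytosolic Hsp70 that also strips clathrin from vesicles. It averaged 11.5 per 10000 in Wistar against 12.3 in SHR, with a log2 difference of 0.09. Hspa5 (BiP), the Hsp70 of the ER, was the next highest, at 5.71 per 10000 in Wistar against 3.88 in SHR. Its log2 difference of -0.46 was the lowest of the 67 members, and 2.76% of all genes past the minimum had a lower one. Only 1676 of those 7621 genes averaged at least 1 per 10000, and the added 1 shrinks the differences of the rest more. The ratio of the Hspa5 means, 0.679, did not reach the 1.5-fold size. In this direction 26.5% of all genes passed it, and 11.6% of those with an average of at least 1. Hsph1, an Hsp110 that acts as nucleotide exchange factor, had 2.07 per 10000 in Wistar against 1.37 in SHR, and its log2 difference was -0.37. Its relative Hspa4 had 2.43 and 2.04 per 10000 and Hspa4l 1.01 and 0.953, so the 3 Hsp110 genes were all lower in SHR, although Hspa4l was not once the median of all genes was set to 0.

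The other Hsp70 genes were under 1 per 10000 in both libraries. Hspa13, an ER member, averaged 0.611 and 0.480, and Hspa12a, an atypical member, had 0.585 and 0.417. Hspa2, best known from testis, had 0.303 and 0.275 per 10000, and Hspa14, a ribosome-associated member, had 0.208 and 0.232. Hspa9, the mitochondrial Hsp70 that pulls proteins into the matrix, had 0.313 and 0.265 per 10000. In all, 8 of the 10 compared genes of the family were lower in SHR, against 65.6% of all genes. Hspa8 and Hspa14 were higher. With the median of all genes set to 0, 6 of the 10 were lower, since Hspa4l and Hspa2 turned. The family summed to 24.8 per 10000 in Wistar and 22.3 in SHR, and to 13.3 and 9.97 without Hspa8.

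Hsp90ab1, the constitutive cytosolic Hsp90, was the most abundant member. It ranked 19 among all genes in both libraries, at 29.3 per 10000 in Wistar against 39.3 in SHR, with a log2 difference of 0.41. Hsp90b1 (Grp94), the Hsp90 of the ER, differed in the other direction, with levels of 3.78 and 3.35 per 10000 and a log2 difference of -0.14. The ratio of the cytosolic to the ER gene was 7.75 in Wistar and 11.7 in SHR. It does not depend on the scaling of the libraries.

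Small heat shock proteins hold unfolded proteins without using ATP. Hspb1 (Hsp27), which also binds the actin cytoskeleton and is known in peripheral neurons, averaged 10.4 per 10000 in Wistar against 14.3 in SHR, with a log2 difference of 0.43. It ranked 84 among all genes in Wistar and 66 in SHR. Hspb8, which works with Bag3 in selective autophagy, had 1.25 and 1.51 per 10000. Hspb11, a subunit of the transport machinery of cilia that carries the name of the family, had 0.243 and 0.341. These 3 genes were higher in SHR, and the remaining 5 of the family were at most at 0.05 per 10000 in either library. Cryab, a small heat shock protein outside the symbol rule that glia also express, had 0.319 per 10000 in Wistar and 0.113 in SHR. The 10 glial markers summed to 9.43 and 3.47 per 10000, and their part in the Cryab difference was not tested.

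**Figure D3:**
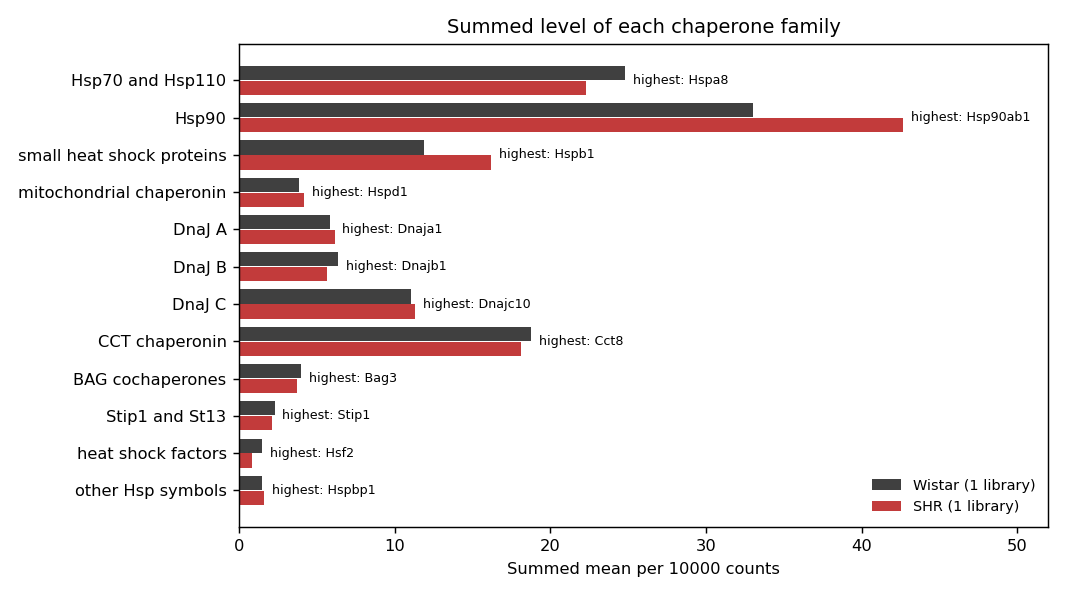
Summed mean per 10000 counts (x axis, from 0) of each family in the Wistar (black) and the SHR library (red), with 1 library per strain and so no error bars, and with the highest gene of each family named. Hsp90 sums to 33.0 and 42.7 and the small heat shock proteins to 11.9 and 16.2, while the Hsp70 sum is higher in Wistar.

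The mitochondrial chaperonin pair differed within itself. Hspd1 (Hsp60), the folding chamber, had 2.98 per 10000 in Wistar against 2.77 in SHR, with a log2 difference of -0.08. Hspe1 (Hsp10), its lid, had 0.887 and 1.40, with a log2 difference of 0.35. The ratio of Hspd1 to Hspe1 was 3.36 in Wistar and 1.98 in SHR, and both promoter windows hold the repeat of heat shock elements shown above. Several other mitochondrial members were also higher in SHR. Dnajc19, part of the import motor, had 0.766 and 1.05 per 10000, its relative Dnajc15 had 0.845 and 1.09, and Dnaja3, a partner of Hspa9 in the matrix, had 0.122 and 0.20. Of the 8 genes in the mitochondrial list 5 were higher, against 34.4% of all genes, and 3 (Hspd1, Hspa9 and Dnajc11) were lower. The median log2 difference of the list was 0.11. Mitochondrial genes outside this list, counted below with the other partners, went mostly the other way. Trap1 (-0.15), Grpel2 (-0.12) and Clpb (-0.07) were lower and Grpel1 (0.19) was higher in SHR. The direction of the mitochondrial genes thus depended on which of them were listed.

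The DnaJ family was the largest, with 43 members, of which 33 were compared. Of these, 17 were lower and 16 higher in SHR, or 10 and 23 with the median of all genes set to 0. Its sum, 23.2 and 23.1 per 10000, nearly equaled that of the Hsp70 family (a ratio of 0.936 in Wistar and 1.04 in SHR). No DnaJ gene reached a log2 difference of 0.25 in either direction. Dnaja1, the main cytosolic J protein, led with 3.86 and 4.13 per 10000, followed by Dnaja2 with 1.78 and 1.70.

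In the B class 7 of 9 compared members were lower in SHR, against 65.6% of all genes. With the median of all genes set to 0, 4 of 9 were lower, since Dnajb6, Dnajb9 and Dnajb12 turned. Dnajb1 (Hsp40), the stress-inducible partner of Hspa8, had 1.74 per 10000 in Wistar and 1.42 in SHR, and Dnajb4, its close relative, had 0.731 and 0.545. Dnajb2, a neuronal J protein that steers clients to the proteasome, had 1.16 and 1.07. Dnajb6, a suppressor of protein aggregation, had 0.376 and 0.345. Dnajb12, anchored in the ER membrane, had 0.206 and 0.171. The exceptions were Dnajb14, at 0.408 and 0.447, and Dnajb5, at 0.154 and 0.193 per 10000.

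The C class is varied in function, and 12 of its 21 compared members were higher in SHR, against 34.4% of all genes. With the median of all genes set to 0, 15 were higher. Dnajc6 (auxilin), the neuronal J protein that recruits Hspa8 to clathrin coats, had 1.53 per 10000 in Wistar and 1.40 in SHR, and its ubiquitous counterpart Gak had 0.644 and 0.607. Dnajc5 (cysteine string protein), the J protein of synaptic vesicles, was low, with 0.0690 and 0.0704 per 10000. Sgta, its adaptor, had 0.987 and 0.936. The log2 differences of these 4 vesicle and coat genes lay between -0.08 and 0.00. Dnajc12, a cochaperone of the aromatic amino acid hydroxylases to which tyrosine hydroxylase belongs, had 0.361 in Wistar and 0.517 in SHR, beside the nearly equal means of Th. Dnajc8, a J protein of the spliceosome, had 0.782 and 0.907, and Dnajc30, a mitochondrial J protein, had 0.142 and 0.229. Dnajc7, which links Hsp70 with Hsp90, had 1.42 and 1.21 per 10000. Of the remaining compared genes of the class, Dnajc2, Dnajc4, Dnajc9, Dnajc13, Dnajc14, Dnajc17, Dnajc18, Dnajc21, Dnajc24 and Dnajc27, none exceeded 0.511 per 10000, and their log2 differences ran from -0.06 (Dnajc13) to 0.09 (Dnajc24). Dnajc1, an ER membrane protein, had 0.215 and 0.102, the lowest ratio of means (0.473) among the 67 members.

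The 8 subunits of the CCT ring, which occur once in each ring, were expressed within a narrow range. Their means ran from 1.85 per 10000 (Cct5) to 2.96 (Cct6a) in Wistar and from 1.70 (Cct5) to 2.65 (Cct7) in SHR, so that the highest was 1.60 and 1.56 times the lowest. Of the subunits, 4 were higher and 4 lower in SHR, and their sum was 18.8 and 18.1 per 10000. Cct6a stood apart with 2.96 and 2.18 per 10000 and a log2 difference of -0.32. The log2 differences of the other 7 subunits lay between -0.12 (Cct3) and 0.14 (Cct2). Cct8 had 2.80 and 2.63 per 10000, Cct2 2.18 and 2.51 and Tcp1, which names the complex, 1.96 and 1.98. Cct6b, the second gene for this position, is known from testis and had 0.00637 and 0.00786 per 10000.

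Of the cochaperones, Bag1, a nucleotide exchange factor for Hsp70, averaged 0.821 per 10000 in Wistar against 1.13 in SHR, with a log2 difference of 0.23. Bag6, which guards newly made membrane proteins, differed the other way with 1.13 and 0.843 and a log2 difference of -0.21. Bag3, the autophagy partner of Hspb8, had 1.90 and 1.64. The 2 Hsp70 partners Stip1 (Hop) and St13 (Hip) had 1.31 and 1.10 and 0.964 and 1.02 per 10000. Hspbp1, an exchange factor, had 1.33 and 1.53. The cochaperones therefore had no shared direction.

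All 3 heat shock factors past the minimum were lower in SHR, against 65.6% of all genes. Hsf1, the main activator of the heat shock response, averaged 0.486 per 10000 in Wistar against 0.25 in SHR, and its log2 difference of -0.25 fell just short of the size used. Hsf2 had 0.635 and 0.398, and Hsf4 had 0.376 and 0.193. Their ratios of 0.514, 0.628 and 0.514 were past the 1.5-fold size, which 26.5% of all genes also passed in this direction. In the heat shock response list (Hspa1a, Hsph1, Dnajb1, Hspb1, Hsp90aa1, Hspe1, Hspd1, Dnaja1, Dnajb4, Bag3, Hspa4l, Hspb8, Stip1 and Hspa8) 12 of 14 listed genes were compared. Of these, 7 were lower and 5 higher in SHR, or 6 and 6 with the median of all genes set to 0, and their median log2 difference was -0.06. The list summed to 39.6 per 10000 in Wistar and 43.4 in SHR, but to 29.3 and 29.1 without Hspb1. The immediate early genes, which dissociation is known to induce, were likewise mixed, with 6 of 10 compared lower in SHR, or 3 with the median of all genes set to 0, and sums of 18.1 and 16.7 per 10000 over the 12 listed. Fos had 3.18 and 2.48 per 10000, Jun 3.33 and 2.56 and Junb 2.71 and 2.83. Their part in the chaperone values was not tested.

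ER chaperones were lower in SHR, but most of them only slightly. All 8 compared ER members (Hspa5, Hsp90b1, Hspa13, Dnajb9, Dnajb11, Dnajc1, Dnajc3 and Dnajc10) were lower, against 65.6% of all genes, and their median log2 difference was -0.12. With the median of all genes set to 0, 6 of the 8 were lower, since Dnajb9 and Dnajc3 turned. Only Hspa5 reached the size of 0.25. The other compared ER members lay within the interquartile range of all genes, from -0.15 to 0.04. Dnajc10, a reductase that breaks disulfides, had 1.83 per 10000 in Wistar and 1.59 in SHR. Dnajb9, a BiP cofactor of the unfolded protein response, had 0.886 and 0.835, and Dnajb11, which hands clients to BiP, had 0.534 and 0.448. Of 13 further ER folding genes, 11 were lower and 2 (Sdf2l1 and Manf) higher, or 10 and 3 with the median of all genes set to 0. Calreticulin (Calr), a lectin chaperone, had levels of 6.38 and 4.77 per 10000 and a log2 difference of -0.35, and calnexin (Canx), its membrane-bound counterpart, had 6.50 and 5.21, with -0.27. Secretory cells of other types also express these genes. The 6 fibroblast markers summed to 1.84 and 0.353 per 10000, and the part of such cells in the ER values was not tested. Serpinh1, the collagen chaperone of fibroblasts, had 0.247 and 0.0543.

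Prefoldin had the highest median of the lists of chaperones and partners. All 6 subunits were higher in SHR by at least the size of 0.25, against 6.53% of all genes past the minimum, and their median log2 difference was 0.35. Among genes with an average of at least 1 per 10000, where all 6 lie, 25.7% reached it. Pfdn2 had 2.85 per 10000 in Wistar and 4.14 in SHR, Pfdn4 had 2.15 and 3.37, and Pfdn1, the smallest difference, had 2.08 and 2.71. The CCT ring, to which prefoldin delivers actin and tubulin, had a median of -0.03 over its 8 subunits.

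Of 12 cochaperones of Hsp90 outside the symbol rule, 8 were higher in SHR, against 34.4% of all genes, and 4 were lower. With the median of all genes set to 0, 9 were higher and 3 lower. The 6 that averaged at least 1 per 10000 were all higher, and at that level 54.5% of all genes were higher too. Ptges3 (p23), which closes the Hsp90 dimer on its client, had 3.13 and 3.55 per 10000, and Fkbp4, an immunophilin, had 2.41 and 2.94. Unc45a, a myosin chaperone, had 0.581 and 0.267, with a log2 difference of -0.32. Among 12 other listed partners, 6 were lower and 6 higher. Hsbp1, which binds and restrains Hsf1, had 2.69 and 4.02 per 10000, with a log2 difference of 0.44. Clu (clusterin), a secreted chaperone, had 5.71 and 4.10, with -0.40. The glial markers summed to 9.43 and 3.47 per 10000, and the part of glia in the Clu difference was not tested.

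**Figure D4:**
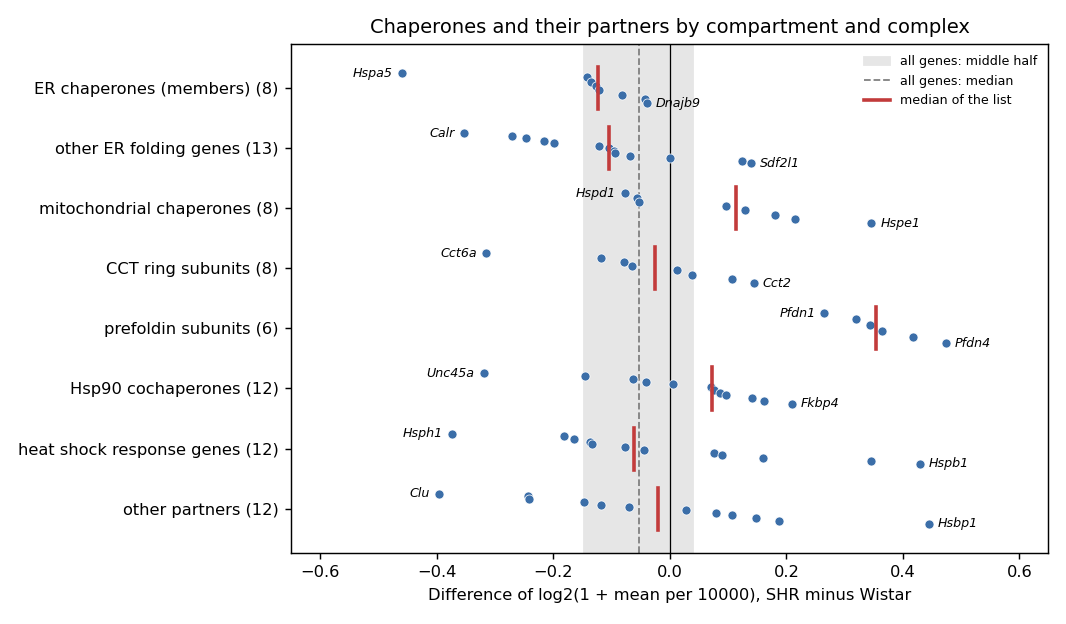
Difference of log2(1 + mean per 10000), SHR minus Wistar (x axis), for lists of chaperones and partners (rows, with the number of genes past the minimum), with 1 point per gene and a red line at each median. The gray band and dashed line show the interquartile range and the median of all genes. All ER members lie left of 0 and all prefoldin subunits right of it, and the lowest and highest gene of each list are named.

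Members that hold the same heat shock element did not share a direction. Of the 6 members with a 3-unit heat shock element 4 were higher and 2 lower in SHR, from -0.37 (Hsph1) to 0.35 (Hspe1). Of the 19 compared members with either 2-unit form 11 were lower and 8 higher, with a median log2 difference of -0.03, while 17 of 32 compared members whose windows held no element were lower, at a median of -0.01. All 3 members with an ER stress element were lower, against 65.6% of all genes past the minimum, so this count of so few genes is no sign of a shared direction. The log2 differences were -0.46 for Hspa5, -0.14 for Hsp90b1 and -0.04 for Dnajc3. Of them, Dnajc3 turned with the median of all genes set to 0. All 3 are also in the ER list.

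**Figure D5:**
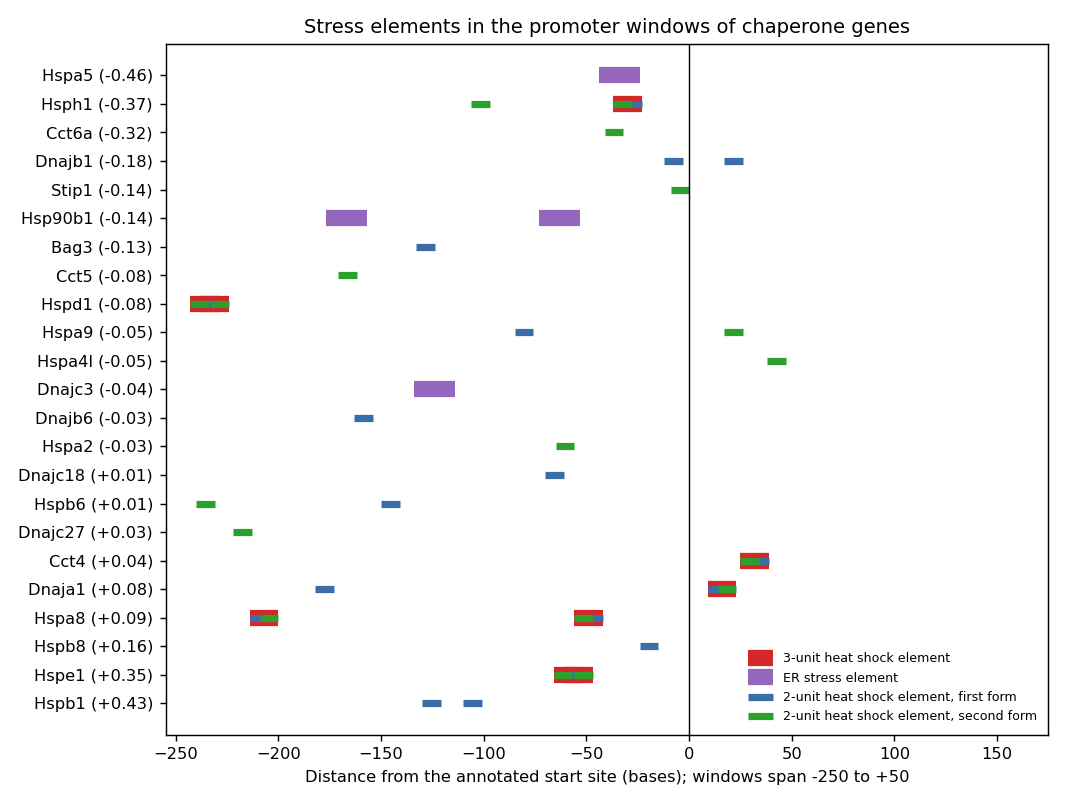
Position of each element relative to the annotated start site (x axis, in bases, with the start at the vertical line), for the 23 members with a match, ordered by their log2 difference, which is given in parentheses. Hspb6 is shown although it is under the minimum used for comparisons. The first form of the 2-unit element is GAANNTTC and the second form is TTCNNGAA. The 3-unit elements (red, under their 2-unit parts) occur in genes from 0.35 (Hspe1) to -0.37 (Hsph1). The ER stress elements (purple) occur in 3 genes, all with a negative difference, as 65.6% of all genes past the minimum had.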

How the data were processed

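Single cells of stellate ganglia, 1 library per strain, were sequenced with 10x Genomics 3′ v3 chemistry. The submitters' processing notes name Cell Ranger 3.0.2, Seurat 3, DESeq2 and the build Rnor_6.0; filters on cells and the treatment of doublets are not given in the sources used here. The authors chose the sympathetic neuron cluster and deposited its mean level of every gene, by library, on a natural log scale (1 plus the mean per 10000 counts of a cell, logged). A table of the authors' own strain comparison (fold changes, p-values and shares of cells) was not used.

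Values were converted back (the 25399 lines sum to 10000.0 per library), and 4 lines with repeated names were left out. Python 3.11.15, NumPy 2.4.6 and pandas 2.3.3 were used. Differences are of log2(mean + 1). Comparisons used genes with an average of at least 0.1 per 10000, and sizes of 0.25 in log2 and 1.5-fold replaced a test. Family and list sums used every listed gene. The calculation was tested on simulated data. Members and lists were chosen with earlier results of these data known. Named were the highest members of each family, the largest differences, the genes of the listed pathways, and some further members chosen after their values were seen. RefSeq promoter windows (GRCr8) were matched by symbol; Bag4, Dnaja2, Dnajb4, Dnajc11, Dnajc12, Dnajc15, Dnajc2, Dnajc22, Dnajc24, Dnajc8, Hsf1, Hsf4, Hsp90aa1, Hspa12a, Hspb11, Hspb2 and St13 had none. Alternatives were other pseudocounts, scalings, minimums and sizes. A gene of the list of other partners is not reported here and was left out of its counts.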

Additional observations from a re-analysis of the deposited data

How the results depend on the processing

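No paired analysis was possible because there was a single library for each strain, and so no library could be left out. With no replicate spread, a log2 value was counted as moved from a shift of 0.05. Against 37 members lower in SHR of 67, 17 were lower at a minimum of 1 per 10000, where only 28 members were compared. The median log2 difference of the members, -0.03, was -0.083 with a pseudocount of 0.1 and 0.020 with the median of all genes set to 0, which adds 0.052 to each gene and left 28 of 67 members lower. This centring turned 9 single members from lower to higher, none of them with a difference beyond -0.05 before it, and no other setting turned any. Differences shrink or grow with the pseudocount by construction. The 3 lower and 3 higher members past a log2 difference of 0.25 became 13 and 12 with a pseudocount of 0.1 and 0 and 0 at a size of 0.5. The lower count was 0 with a pseudocount of 10. The higher count was 5 with the centring, and 5 when the totals excluded mitochondrial and ribosomal protein genes. The 5 lower and 3 higher members past a fold of 1.5 became 3 and 1 with 0.1 added to each mean. For the folds, the centring divided each ratio by the median ratio of all genes past the minimum, and the counts became 3 and 10. They were 8 and 8 with no minimum, 1 and 1 at a minimum of 1 per 10000 and 1 and 0 at a fold of 2. The higher count was 5 with the totals that excluded mitochondrial and ribosomal protein genes. Summed levels of the 12 families and of the heat shock response list moved by less than 0.05 in log2 without those genes or without markers of other cell types in the totals. Such a change of totals multiplies all levels of a library by the same factor. Every sum therefore moved by the same amount by construction, which says nothing about single families. For the other settings the cause was not tested. Depth is unknown, so the counting error of members with low means is unknown too.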
